A study of Mus musculus with 7 samples.

Results

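The collagen chain genes were followed across 7 expression arrays of mouse hematopoietic stem cells (HSCs), the rare marrow cells from which all blood lineages derive. Members were the probe sets to which the array's annotation gives exactly 1 gene with a symbol of the form Col, a number, a, a number. That rule found 47 probe sets for 44 genes, out of 23521 probe sets with 1 symbol for 22180 genes. Of the 44 genes, 41 had 1 probe set, and Col1a2, Col5a1 and Col6a1 had 2 each. A further probe set that names Col6a1 together with other genes was left out. The rule itself used no measured value, but the family was taken up with earlier results of these data known, including a large difference for Col1a2.

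The 3 Ahr-KO arrays were labelled as HSCs of Ahr knockout mice and the 4 WT arrays as HSCs of mice with wild-type Ahr. The aryl hydrocarbon receptor, the product of Ahr, is a transcription factor activated by aromatic ligands. Both genotypes were on the C57BL/6J background and were killed at the age of 8 weeks. Marrow was depleted of lineage-positive cells, and HSCs were taken by SLAM-family surface markers before RNA was extracted, converted to biotin-labelled cDNA with a kit for very small amounts and hybridised. The labels give neither the knockout allele, nor the number of mice behind an array, nor whether arrays came from separate mice, so each p-value reflects array-to-array spread only, part or all of which may be technical.

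Collagens are secreted or membrane-bound proteins whose alpha chains wind into a triple helix through long stretches of a repeat that begins with glycine. Fibril-forming chains give bone, tendon and skin their tensile strength, type IV chains form the sheet of basement membranes, and other chains link fibrils, anchor epithelia or span the cell membrane. In bone marrow, collagen is known mainly as a product of osteoblasts, perivascular stromal cells and vessel walls, while blood cells meet it through receptors. In bulk RNA from sorted cells, fewer cells of a type and less RNA per cell cannot be told apart.

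The arrays differed in ways that touch every comparison. Median intensity over the whole table ran from 16.9 to 20.3 on the Ahr-KO arrays and from 17 to 22.1 on the WT arrays. Across probe sets, WT replicate 2 correlated least with the rest (mean 0.625), and the other 6 arrays gave means between 0.662 and 0.707. The intensity of Ahr itself was 34.1, 137 and 26.4 in Ahr-KO HSCs, against 31.3, 57.9, 14.9 and 20.5 in WT HSCs, so this probe set did not separate the labels, and neither the part of Ahr it covers nor the part deleted is stated in the labels, so it does not check them. Of 9 measured HSC markers, 5 (Kit, Cd34, Gata2, Hlf and Meis1) lay above background on all 7 arrays. Procr and Mecom did so on 6 each, Slamf1 on 4 and Fgd5 on 2. Slamf1, a SLAM-family gene, stood at 57.4, 78 and 236 in Ahr-KO HSCs, against 4.56, 23.3, 7.81 and 73.3 in WT HSCs. Of the 9, 3 had the higher mean log2 value in Ahr-KO and 6 the lower. The summed intensity of 8 granulocyte markers was 5352 to 15462 in Ahr-KO and 791 to 16330 in WT. All 8 had the higher mean log2 value in Ahr-KO, none with a limma unadjusted p under 0.05. The number of arrays limits the precision of each value.

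Background was marked on each array by the 95th percentile of 1108 probe sets of olfactory receptor genes, which blood cells are not known to use widely. The mark lay at 37.2, 33.8 and 37.6 on the Ahr-KO arrays and at 39.1, 42.8, 42.4 and 33.9 on the WT arrays. Most collagen probe sets stayed near or under it. In Ahr-KO, 14, 11 and 14 of the 47 exceeded the mark, a mean of 13 ± 1.73 (SD, n = 3), and in WT 16, 14, 12 and 17 did, a mean of 14.75 ± 2.22 (SD, n = 4). The ranges of the genotypes overlapped, and the gap between the means was about the size of the spread between arrays. The collagen share was 29.8, 23.4 and 29.8% on the Ahr-KO arrays, where all 25335 tested probe sets gave 34.9, 41.9 and 36.2%. On the WT arrays it was 34, 29.8, 25.5 and 36.2%, against 36.4, 30.7, 34 and 44.9% of all tested. On every array the collagen share was the smaller. Ahr-KO replicate 2 had the fewest collagen probe sets above the mark although 41.9% of all probe sets exceeded it there. With the mark at the 90th percentile the mean counts were 22 in Ahr-KO and 21.25 in WT, so the order of the genotypes depended on the mark.

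**Figure D1:**
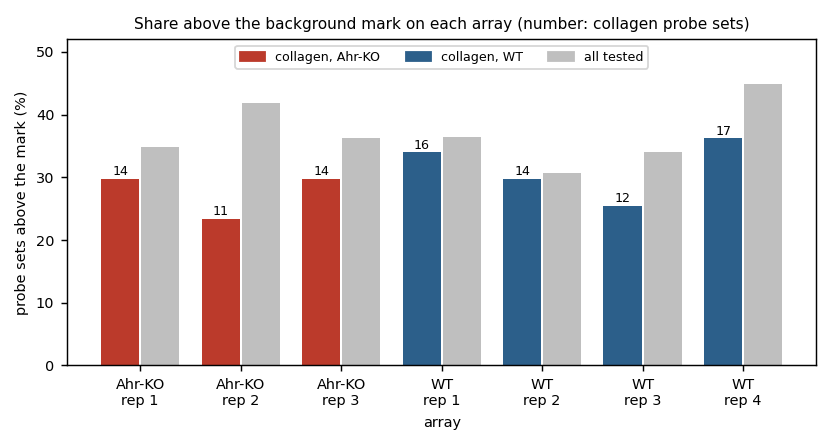
Share of probe sets above the olfactory receptor background mark on each array, in percent, for the 47 collagen probe sets (coloured bars, with their number) and all tested probe sets (grey). Ahr-KO arrays hold 11 to 14 collagen probe sets above the mark and WT arrays 12 to 17.

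Only 4 collagen probe sets, or 8.51%, lay above the mark on all 7 arrays, against 14.4% of all tested probe sets, and 17 (36.2%) lay above it on none, against 33.9%. The 4 were Col7a1, Col13a1, Col16a1 and Col27a1, which belong to 4 different structural classes. The 17 at background on every array included Col3a1 and Col5a2, fibril chains of soft tissue, Col2a1, the main fibril chain of cartilage, and Col6a2, Col6a3, Col14a1 and Col15a1. Another 11 (23.4%, against 14.5% of all tested) exceeded the mark on a single array, 6 times an Ahr-KO array and 5 times a WT array. Some of these single values stood far above the rest. Col11a1, a minor fibril chain, was at 92.6 on Ahr-KO replicate 1 and at 8.92 to 16.6 elsewhere. Col10a1, the collagen of hypertrophic cartilage, was at 153 on WT replicate 3 and at 8.35 to 23.5 elsewhere. The other 15 exceeded the mark on 2 to 6 arrays.

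**Figure D2:**
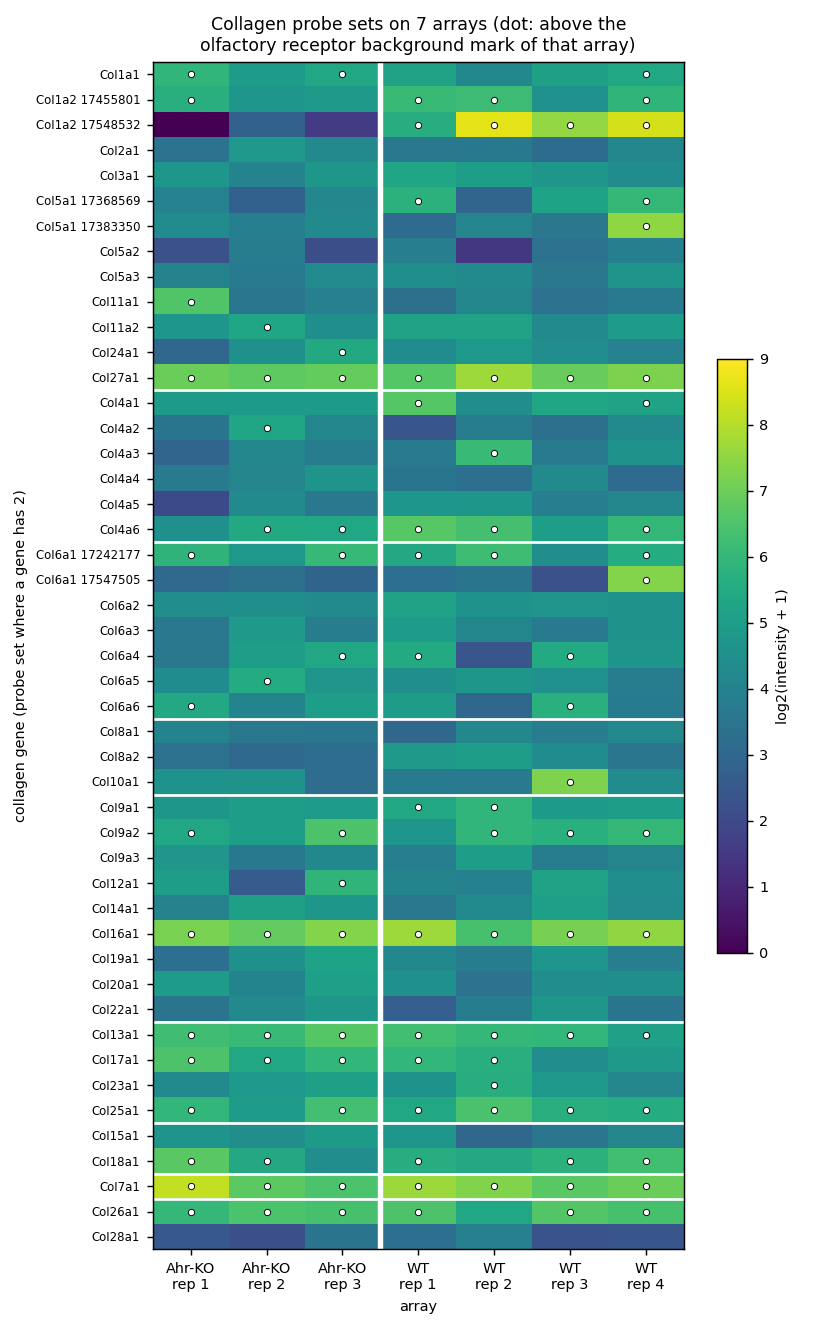
Level of each collagen probe set, as log2(intensity + 1), on the 3 Ahr-KO and 4 WT arrays, grouped by structural class; a dot marks a value above that array's background mark. Rows with 7 dots are Col27a1, Col16a1, Col13a1 and Col7a1, and the Col1a2 probe set 17548532 has dots on the 4 WT arrays alone.

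To ask whether loss of Ahr goes with a change in these genes, the genotypes were compared by limma on log2(intensity + 1) over all 25335 annotated probe sets, with differences given as Ahr-KO minus WT. No collagen probe set passed an adjusted p of 0.05, nor did any other (0% of all tested). Adjusted p-values of the 47 ran from 0.961 to 0.999 by limma with Benjamini-Hochberg adjustment. At an unadjusted p under 0.05 there were 2 collagen probe sets (4.26%), of Col1a2 and Col8a2, against 4.21% of all tested probe sets. Both had lower values in Ahr-KO, a direction that 2.22% of all tested probe sets shared at that level. The values of the genotypes did not overlap for 3 collagen probe sets (6.38%), those of Col1a2, Col8a2 and Col6a2, against 5.74% of all tested, and all 3 were lower in Ahr-KO, where 3.13% of all tested were. The shares over both directions lay near the background. Those lower in Ahr-KO were above it, and rest on 2 and 3 probe sets. Both counts include Col1a2 probe set 17548532. That probe set was already known to be among the most different when the collagens were taken up, so neither count is evidence of an excess.

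As a family the collagens showed no common shift. The mean log2 value of Ahr-KO was the higher for 19 probe sets and the lower for 28, or 59.6% lower against 51.7% of all tested. The median log2 difference was -0.06, beside -0.03 over all tested probe sets and a median standard error (SE) of 0.56 for the collagens. For 33 of the 47 (70.2%, against 64.3% of all tested) the difference was smaller than its own SE. Without WT replicate 2 the median was 0.01 and 23 were lower, and without Ahr-KO replicate 3 it was -0.17.

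**Figure D3:**
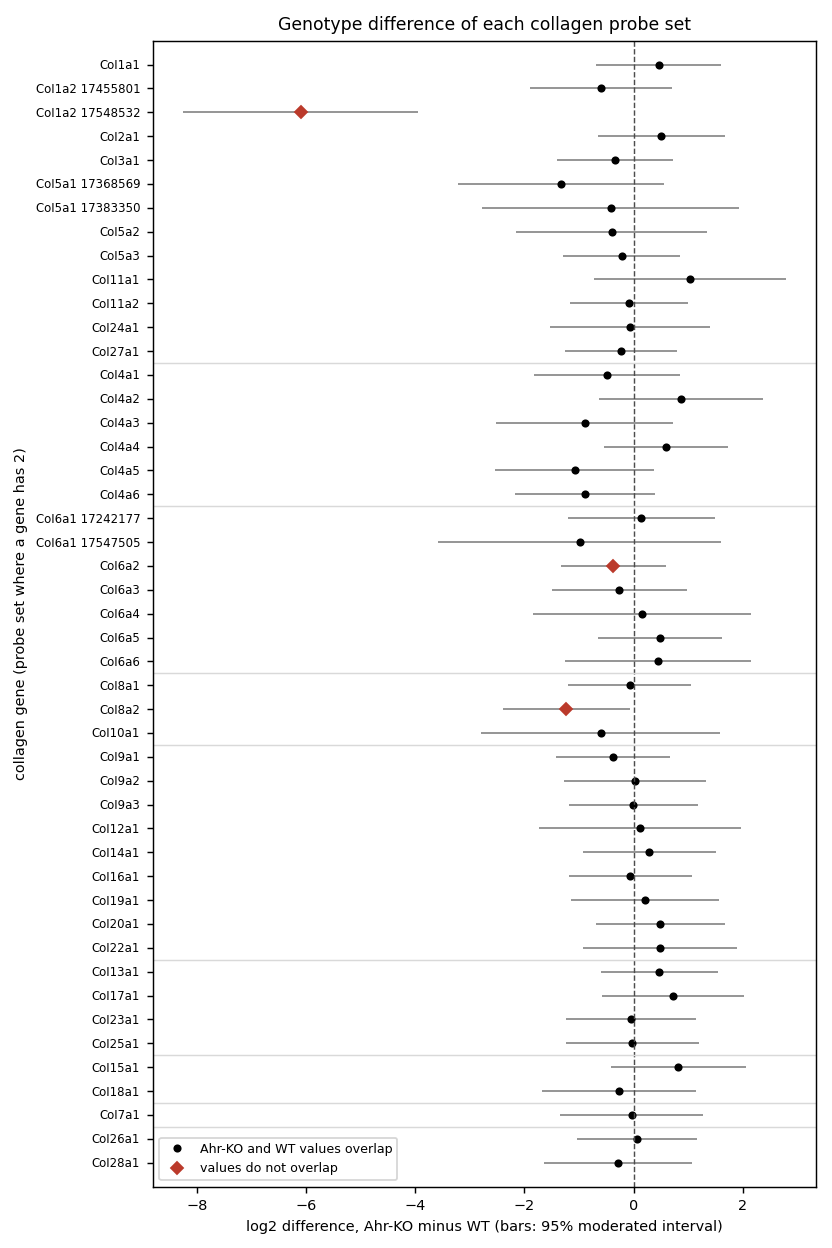
Log2 difference of each collagen probe set, Ahr-KO minus WT (points), with the 95% interval of the moderated fit (bars), grouped by structural class. Apart from Col1a2 probe set 17548532 at -6.10, the differences lie between -1.33 and 1.04, and red diamonds mark the 3 probe sets whose values do not overlap.

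Type I collagen, the main fibril of bone and tendon, is built from the chains of Col1a1 and Col1a2. Col1a1 stood at 59.5, 30.6 and 39.7 on the Ahr-KO arrays and at 35.6, 17.4, 33.3 and 39.7 on the WT arrays. It exceeded the mark on 2 Ahr-KO arrays and 1 WT array, and the genotypes overlapped. Its log2 difference was 0.46 ± 0.49 (SE, 95% interval -0.69 to 1.60), with a limma adjusted p of 0.963 and an exact two-sided permutation p of 0.371. Without Ahr-KO replicate 1, or without WT replicate 2, the difference was 0.20.

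The 2 probe sets of Col1a2 gave unlike pictures. Probe set 17548532 was listed at 0, 5.86 and 1.95 in Ahr-KO HSCs, against 47.2, 398, 186 and 341 in WT HSCs. It was under the background mark on every Ahr-KO array and above it on every WT array, the only collagen probe set with that pattern, which 0.146% of all tested probe sets showed. WT replicate 1 was the lowest of the WT arrays, close to its mark. Its log2 difference was -6.10 ± 0.93 (SE, 95% interval -8.26 to -3.95), with a limma adjusted p of 0.961 and an unadjusted p of 0.000191. With Ahr-KO values at background the size rests on the pseudocount, and with 16 in place of 1 it was -3.50. With each Ahr-KO value set to the background mark of its array instead, the difference of the log2 means corresponded to 5.04-fold. That figure has no interval and is not a guaranteed minimum. The exact permutation p of 0.0286 is the smallest that the 35 ways of dividing 7 arrays allow. This probe set was already known to be among the most different of the whole table when the collagens were taken up, so these values describe it and add no independent evidence.

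On 17455801 the same gene gave 49.9, 25.8 and 28.2 in Ahr-KO HSCs, against 68.2, 71.7, 22.7 and 58.7 in WT HSCs. It exceeded the mark on 1 Ahr-KO array and 3 WT arrays. The log2 difference was -0.60 ± 0.56 (SE, 95% interval -1.90 to 0.71), with a limma adjusted p of 0.963 and an exact permutation p of 0.257. The direction was that of the other probe set, but the genotypes overlapped, since WT replicate 3 was the lowest of all 7 arrays here while 17548532 gave 186 on it. The 2 differences lay 5.50 log2 units apart. Among the 968 genes with exactly 2 probe sets of 1 symbol, the median of that gap was 0.68, the largest was that of Col1a2 and the next 5.19. Since 17548532 was already known to be among the most different probe sets, this rank only describes Col1a2. The gap also rests on the pseudocount. With 16 the differences were -3.50 and -0.46, and no rank was computed there. Probe positions were not used here, and whether the 2 probe sets read the same Col1a2 transcripts was not tested.

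**Figure D4:**
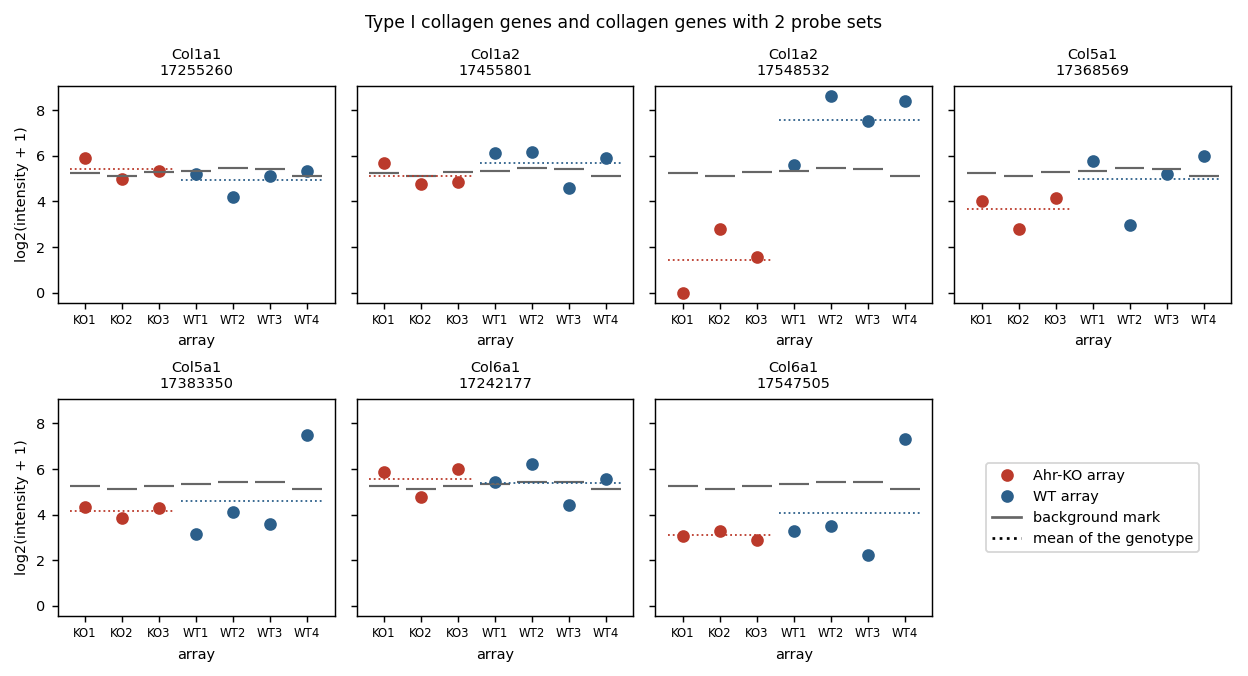
Level of the type I collagen probe sets and of both probe sets of Col5a1 and Col6a1, as log2(intensity + 1), on each array (red Ahr-KO, blue WT), with each array's background mark (grey line) and the mean of each genotype (dotted). Col1a2 17548532 separates the genotypes, at 0 to 5.86 in Ahr-KO and 47.2 to 398 in WT on the intensity scale, and the other 6 panels overlap.

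The start of Col1a2 is shown because the largest difference among the collagens lies in this gene. In the RefSeq window on GRCm38.p6, chr6:4505368-4505667, plus strand, 250 bases before to 50 after the start, capitals mark CCAAT or its reverse complement ATTGG, which begin at bases -109 and 1 relative to the start. The CCAAT box is the element bound by the factor NF-Y, which is known to act on type I collagen promoters.
Col1a2: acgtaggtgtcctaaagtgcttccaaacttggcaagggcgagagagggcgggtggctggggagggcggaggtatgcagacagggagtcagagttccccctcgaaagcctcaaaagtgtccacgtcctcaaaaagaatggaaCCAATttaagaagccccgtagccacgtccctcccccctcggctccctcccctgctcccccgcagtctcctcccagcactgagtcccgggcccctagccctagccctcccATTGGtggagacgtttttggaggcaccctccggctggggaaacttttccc
CCAAT stood on either strand in 13 of 38 collagen windows (34.2%) and in 37.4% of all 32851 windows. The letters GCGTG, the core of the DNA element to which the aryl hydrocarbon receptor binds, stood on either strand in 10 of the 38 (26.3%) and in 32.4% of all windows, and the Col1a2 window held none. The windows covered 35 of the 44 genes. The match of letters is a description and says nothing of binding.

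The remaining fibril-forming genes gave low and uneven values. Counting Col1a1 and Col1a2, this class held 11 genes and 13 probe sets, and Ahr-KO had the higher mean for 3 and the lower for 10, with a median log2 difference of -0.23. Col27a1, a short-fibril chain of cartilage, was the only one above the mark on all arrays, at 126, 109 and 116 in Ahr-KO HSCs, against 99, 205, 118 and 148 in WT HSCs. Its difference was -0.23 ± 0.45 (SE; limma adjusted p = 0.973). Col5a1 and Col5a2 encode type V chains, which set the diameter of type I fibrils. Col5a1, on probe set 17368569, gave 15, 5.94 and 17 in Ahr-KO HSCs, against 53.5, 6.72, 36.1 and 63.2 in WT HSCs, a difference of -1.33 ± 0.82 (SE; limma adjusted p = 0.963). All Ahr-KO values and WT replicate 2 were low, while the other WT values reached or neared the mark. The difference was -2.01 without WT replicate 2, where Col5a1 joined the probe sets with an unadjusted p under 0.05, and -0.90 without Ahr-KO replicate 2. On 17383350 it was at 19.2, 13.6 and 18.7 in Ahr-KO HSCs, against 7.92, 16.2, 10.9 and 182 in WT HSCs, and its difference of -0.42 ± 1.02 (SE; limma adjusted p = 0.979) was 0.56 without WT replicate 4. Col3a1, the partner of type I in soft tissue and vessel walls, lay under the mark on all arrays, at 25.5, 15.4 and 26.2 in Ahr-KO HSCs, against 38, 31, 25.9 and 19.6 in WT HSCs. Col24a1, a minor fibril chain of developing bone, stood at 6.95, 21.8 and 43.3 in Ahr-KO HSCs, against 19.7, 26.8, 20.2 and 14.8 in WT HSCs, so that its lowest and highest values were both Ahr-KO arrays. Col11a2, the partner of Col11a1 in cartilage fibrils, neared the mark on several arrays and exceeded it on Ahr-KO replicate 2, at 37.8, with a range of 18.6 to 37.8 over all 7. Col2a1, Col5a2 and Col5a3 stayed between 1.77 and 26.7.

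Type IV collagen forms the basement membrane network, including that of marrow sinusoids. Its 6 genes gave 2 higher and 4 lower values in Ahr-KO, a median log2 difference of -0.69 and a range of -1.08 to 0.87, each within an interval that included 0. Col4a1 stood at 28.6, 28.8 and 29 in Ahr-KO HSCs, against 97.8, 20.6, 38.1 and 35.7 in WT HSCs. Its Ahr-KO values were nearly equal and WT replicate 1 stood apart. Col4a2, whose chain joins that of Col4a1 in the same helix, stood at 10.3, 39.1 and 16.6 in Ahr-KO HSCs, against 4.28, 13.1, 8.93 and 18.4 in WT HSCs. Its highest value was on Ahr-KO replicate 2 and its lowest on WT replicate 1, the array on which Col4a1 was highest. Col4a1 exceeded the background mark on 2 WT arrays and Col4a2 on 1 Ahr-KO array, so most values of both genes lay at background.

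These 2 genes lie head to head and were the only collagen pair whose windows overlapped. The shared stretch is shown because partner chains that start from it gave unlike profiles, though mostly of values under the mark. It spans 78 bases of GRCm38.p6, chr8:11312777-11312854, read on the plus strand, that of Col4a2, and holds no CCAAT on either strand. Outside this stretch, the window of each of the 2 genes held 1 CCAAT and 1 GCGTG, counted on either strand.
Col4a1 and Col4a2: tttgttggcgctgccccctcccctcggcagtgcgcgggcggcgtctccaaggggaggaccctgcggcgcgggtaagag
The 4 other type IV chains are known from specialised basement membranes such as that of the kidney glomerulus. Col4a6 had the most values above the mark of the class, at 22.1, 43.7 and 39.8 in Ahr-KO HSCs, against 101, 81.3, 31.4 and 62.3 in WT HSCs, with overlap. Col4a4 and Col4a5 exceeded it on no array, and Col4a3 on WT replicate 2 alone, at 67.

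Type VI chains form beaded filaments around cells. Of 7 probe sets for 6 genes, 4 had a higher mean in Ahr-KO and 3 a lower one, with a median log2 difference of 0.14. Col6a2 stood at 20.7, 21.5 and 18.3 in Ahr-KO HSCs, against 35.5, 23.7, 25 and 22.8 in WT HSCs. The genotypes did not overlap, but every value lay under the background mark, and the difference was -0.37 ± 0.42 (SE; limma adjusted p = 0.963). Col6a1, its partner chain, stood at 57.4, 26.5 and 63.8 in Ahr-KO HSCs, against 42, 72.7, 20.8 and 46.3 in WT HSCs on probe set 17242177, a difference of 0.14 ± 0.58 (SE; limma adjusted p = 0.988). The gene's other probe set, 17547505, was at 6.39 to 8.9 in Ahr-KO and at 3.66 to 10.3 on 3 WT arrays, and reached 158 on WT replicate 4. Its difference of -0.99 ± 1.12 (SE; limma adjusted p = 0.964) was 0.09 without that array. Col6a1 17547505 and Col5a1 17383350 were thus both high on WT replicate 4 alone, and neither gene's other probe set stood apart there. Col6a4, Col6a5 and Col6a6 encode longer chains that can stand in for that of Col6a3. Col6a4 stood at 11.2, 31.7 and 40.5 in Ahr-KO HSCs, against 44.3, 4.35, 43.8 and 24.4 in WT HSCs, above the mark on 1 Ahr-KO array and 2 WT arrays. Col6a6 stood at 41.9, 15.5 and 31.1 in Ahr-KO HSCs, against 30.7, 7.29, 51.6 and 12.4 in WT HSCs. For both genes the spread within a genotype was wider than the gap between genotypes. Col6a5 exceeded the mark on Ahr-KO replicate 2 alone, at 45.8, and Col6a3 lay between 11.1 and 30.2.

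Types VIII and X form hexagonal networks. The means of all 3 genes were lower in Ahr-KO (median log2 difference -0.60). Col8a2, a chain of the membrane under the corneal endothelium, stood at 9.19, 7.4 and 8.4 in Ahr-KO HSCs, against 28.5, 31.2, 19.8 and 10.6 in WT HSCs. No value reached the background mark on any array. The difference was -1.24 ± 0.50 (SE, 95% interval -2.40 to -0.07), with an unadjusted p of 0.0403 and a limma adjusted p of 0.963, and -0.63 with a pseudocount of 16. The unadjusted p of Col8a2 stayed under 0.05 when WT replicate 4, its lowest WT value, was left out, and not when any other single array was. Col8a1, whose chain forms networks with that of Col8a2, stood at 15.8, 11.1 and 10.5 in Ahr-KO HSCs, against 6.97, 17.3, 12.9 and 17.8 in WT HSCs and lay under the mark throughout.

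Fibril-associated chains, which sit on the surface of larger fibrils, made up 9 genes, for which Ahr-KO had the higher mean in 6 and the lower in 3, with a range of -0.38 to 0.49 in log2 difference. Col16a1, known from fibroblasts and smooth muscle, exceeded the mark on every array, at 144, 113 and 160 in Ahr-KO HSCs, against 202, 81.8, 140 and 181 in WT HSCs. Its difference was -0.06 ± 0.49 (SE; limma adjusted p = 0.996). Col9a2, a cartilage chain, stood at 41.1, 31.3 and 89.3 in Ahr-KO HSCs, against 25.8, 60.4, 51.8 and 63.4 in WT HSCs. Col9a1, its partner chain, stood at 26.3, 32.3 and 29.7 in Ahr-KO HSCs, against 40.1, 60.4, 28.7 and 31 in WT HSCs, above the mark on 2 WT arrays and no Ahr-KO array. Col12a1, found in dense connective tissue, ran from 5.21 on Ahr-KO replicate 2 to 57.6 on Ahr-KO replicate 3, so that its whole range lay within Ahr-KO. Of the class, 5 genes, Col9a3, Col14a1, Col19a1, Col20a1 and Col22a1, exceeded the mark on no array.

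Transmembrane chains pass through the cell membrane once and can be shed. All 4 exceeded the mark somewhere, with a median log2 difference of 0.23. Col13a1, found at cell adhesions and the neuromuscular junction, stood at 74.2, 68.4 and 96.8 in Ahr-KO HSCs, against 77.1, 62.6, 61.5 and 34.7 in WT HSCs. It exceeded the mark on all arrays, WT replicate 4 by the least, and its difference was 0.47 ± 0.46 (SE; limma adjusted p = 0.963). Col17a1, a hemidesmosome protein of skin, stood at 88.4, 40.2 and 61.7 in Ahr-KO HSCs, against 61.6, 49.2, 20.2 and 27.5 in WT HSCs, above the mark on 3 Ahr-KO and 2 WT arrays. Col25a1, known from neurons, stood at 61.9, 29.4 and 78.4 in Ahr-KO HSCs, against 40.1, 84.3, 50.3 and 46.4 in WT HSCs. Col23a1 exceeded the mark on WT replicate 2 alone, at 48.2.

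Col7a1, which anchors the epidermis to the dermis, stood at 289, 105 and 85.8 in Ahr-KO HSCs, against 199, 155, 102 and 125 in WT HSCs, above the mark on all 7 arrays. Ahr-KO replicate 1 was the highest, the genotypes overlapped, and the difference was -0.03 ± 0.56 (SE; limma adjusted p = 0.996). Col18a1, a heparan sulfate basement membrane collagen that releases endostatin, stood at 102, 42.3 and 20.3 in Ahr-KO HSCs, against 48, 42.4, 54.4 and 76.8 in WT HSCs. Its lowest and highest values were both Ahr-KO arrays. Its relative Col15a1 stayed under the mark at 24.3, 20.6 and 28.7 in Ahr-KO HSCs, against 25.5, 6.85, 10.7 and 16.2 in WT HSCs. Col26a1 stood at 63.4, 85.8 and 83 in Ahr-KO HSCs, against 88.4, 41.6, 95.2 and 81.4 in WT HSCs, above the mark on every array except WT replicate 2. Col28a1 lay between 3.63 and 14.3 on all arrays.

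Genes that make and mature collagen were measured for 27 of 31 listed, each by its brightest probe set. None passed the adjusted threshold; at an unadjusted p under 0.05 there was 1 higher and none lower in Ahr-KO, where 4.02% of 22180 genes taken the same way had such a p in either direction. That gene was Mia3, whose product loads procollagen into export carriers, at 146, 58.7 and 29.9 in Ahr-KO HSCs, against 24.3, 2.15, 9.97 and 22.9 in WT HSCs, without overlap and above the mark on 2 Ahr-KO arrays. Of the 27, 13 had the higher mean in Ahr-KO and 14 the lower, with a median log2 difference of -0.07, beside -0.03 over all genes. P3h3, a member of the prolyl 3-hydroxylase family, stood at 125, 247 and 32.6 in Ahr-KO HSCs, against 23.3, 40.9, 22.1 and 42.8 in WT HSCs, with overlap. Colgalt2, a collagen galactosyltransferase, lay under the mark on all arrays, at 0.49 to 8.41 in Ahr-KO and 5.71 to 30.9 in WT. Signal on all 7 arrays came from 4 genes for folding and modification. Ppib, a proline isomerase of the endoplasmic reticulum, stood at 2719, 912 and 1366 in Ahr-KO HSCs, against 983, 505, 604 and 942 in WT HSCs. P4hb, a subunit of prolyl hydroxylase that is also protein disulfide isomerase, stood at 407, 272 and 210 in Ahr-KO HSCs, against 194, 324, 285 and 258 in WT HSCs. The other two were Colgalt1, which glycosylates hydroxylysine, and Crtap, of the prolyl 3-hydroxylation complex. Serpinh1, the collagen-specific chaperone, is named for its role after its values were seen. It exceeded the mark on Ahr-KO replicate 1 alone, at 165, with 13.6 and 9.99 on the other Ahr-KO arrays and 0.28 to 20 in WT.

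Collagen receptors were measured for 9 of 10 genes, and none had an unadjusted p under 0.05. Ahr-KO had the higher mean for 5 and the lower for 4, with a median log2 difference of 0.14. Itgb1, the shared beta chain of the collagen-binding integrins, exceeded the mark on all arrays, at 46, 330 and 112 in Ahr-KO HSCs, against 341, 114, 257 and 351 in WT HSCs, as did its partner Itga1, at 107, 116 and 39.3 in Ahr-KO HSCs, against 55.7, 52.1, 184 and 226 in WT HSCs. The genotypes overlapped for both. The receptor kinase gene Ddr1 did not overlap, at 31.5, 34.4 and 30.8 in Ahr-KO HSCs, against 15, 28.3, 14.8 and 19.4 in WT HSCs, but exceeded the mark on 1 array. Ddr2, the related kinase, and Mrc2, an uptake receptor for collagen fragments, lay under the mark on all arrays. Ddr2 was at 14.6 to 27.2 in Ahr-KO and 4.1 to 15.3 in WT, and Mrc2 at 15.7 to 28.2 in Ahr-KO and 26.4 to 36.1 in WT. Of 9 collagen-degrading enzymes and their inhibitors, 4 had the higher mean in Ahr-KO and 5 the lower, none with an unadjusted p under 0.05, and the median log2 difference was -0.16. Of the metalloproteinase inhibitors, Timp3 stood at 39.4, 105 and 229 in Ahr-KO HSCs, against 47.7, 32.3, 41 and 28.5 in WT HSCs, above the mark on 3 Ahr-KO arrays and 1 WT array. Timp2 stood at 417, 136 and 24.3 in Ahr-KO HSCs, against 29.6, 2.63, 26.2 and 58.3 in WT HSCs. The genotypes overlapped for both, as they did for Timp1, at 22 to 42.9 in Ahr-KO and 12.7 to 26.3 in WT. Mmp14, a membrane-bound collagenase, was at 20.9 to 34 in Ahr-KO and 10.9 to 168 in WT. The gelatinase gene Mmp9 exceeded the mark on all 7 arrays, at 126, 47.6 and 49.1 in Ahr-KO HSCs, against 42.5, 76.1, 53.2 and 51.7 in WT HSCs.

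Among 9 measured genes for matrix proteins that bind collagen, none passed the adjusted threshold and 2 had lower values in Ahr-KO at an unadjusted p under 0.05, beside the 4.02% of all genes in either direction. Ahr-KO had the higher mean for 4 and the lower for 5, with a median log2 difference of -0.32. Thbs1, the platelet and matrix glycoprotein thrombospondin, stood at 2.85, 4.45 and 7.44 in Ahr-KO HSCs, against 9.04, 18.4, 192 and 143 in WT HSCs, above the mark on 2 WT arrays. Fmod, a fibril-binding proteoglycan, stood at 5.57, 11.6 and 10.3 in Ahr-KO HSCs, against 22.4, 39.1, 14 and 29.1 in WT HSCs, under the mark throughout. Sparc, a collagen-binding protein of bone, went the other way, at 650, 194 and 159 in Ahr-KO HSCs, against 1.64, 0.57, 107 and 392 in WT HSCs, with overlap. Bgn, a small proteoglycan of bone, exceeded the mark on all 7 arrays, at 335, 604 and 196 in Ahr-KO HSCs, against 161, 267, 388 and 452 in WT HSCs, and Dcn, its relative, on WT replicate 4 alone, at 40.6. The medians of all 4 companion lists changed sign with dim probe sets removed or with the replicate block, and also with a single array left out. Without Ahr-KO replicate 3 the median was 0.08 for synthesis and maturation and 0.02 for matrix proteins. It was -0.22 for receptors without Ahr-KO replicate 1 and 0.35 for degradation without Ahr-KO replicate 2.

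Markers of cells that could carry collagen RNA into the sort were uneven between arrays. The summed intensity of 12 stromal markers was 631 to 1687 in Ahr-KO and 891 to 2093 in WT, with 4 higher and 8 lower in Ahr-KO and a median log2 difference of -0.10. Ebf3, Foxc1 and Angpt1 exceeded the mark on all 7 arrays. Cxcl12, the chemokine by which stromal cells hold HSCs, stood at 3.71, 603 and 12.5 in Ahr-KO HSCs, against 85.8, 109, 224 and 1042 in WT HSCs. It exceeded the mark on the 4 WT arrays, as Col1a2 probe set 17548532 did, and on Ahr-KO replicate 2, where that probe set was at 5.86. Thy1 exceeded it on Ahr-KO replicate 2 alone, at 115. Of these markers, Lepr, Pdgfra, Kitl and Grem1 exceeded the background mark on no array, and Vcam1 was listed at 0 on WT replicate 2. Pdgfrb, a pericyte receptor gene, stood at 12.1, 11.2 and 8.2 in Ahr-KO HSCs, against 15.5, 36.6, 46.7 and 29.7 in WT HSCs, without overlap and above the mark on WT replicate 3 alone. The 5 measured osteoblast markers summed to 115 to 163 in Ahr-KO and 152 to 298 in WT, with 1 higher and 4 lower in Ahr-KO. Alpl, the alkaline phosphatase gene, exceeded the mark on all 7 arrays, at 73.8, 121 and 97.6 in Ahr-KO HSCs, against 119, 130, 52 and 198 in WT HSCs, while Sp7, Dmp1 and Bglap exceeded it on none. The osteoblast gene Ibsp stood at 0.33, 1.67 and 12 in Ahr-KO HSCs, against 0, 6.52, 191 and 64.1 in WT HSCs, high on WT replicates 3 and 4, which also had high values of the Col1a2 probe set 17548532. WT replicate 2, the highest for that probe set at 398, had Ibsp at 6.52. The 10 endothelial markers summed to 654 to 1644 in Ahr-KO and 407 to 803 in WT. Of these, 7 were higher in Ahr-KO, with a median log2 difference of 1.12, beside -0.03 over all genes. Endothelial markers did not stand alone, since the 8 granulocyte markers, all higher in Ahr-KO, also had a median of 1.12. For the 3 measured erythroid markers it was 1.06, with 2 higher. The median was negative for HSC markers (-0.65) and B cell markers (-0.51). Flt4, a lymphatic and sinusoidal receptor gene, stood at 115, 158 and 53.6 in Ahr-KO HSCs, against 40.8, 17.6, 20.6 and 23.4 in WT HSCs, without overlap. Cdh5, the endothelial cadherin gene, stood at 104, 509 and 67.4 in Ahr-KO HSCs, against 5.38, 51.3, 68.8 and 30.2 in WT HSCs. These were the 2 endothelial markers with an unadjusted p under 0.05, where 4.02% of 22180 genes had such a p in either direction. Neither passed the adjusted threshold. The part of stromal, osteoblast or endothelial cells in the collagen values was not tested.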

How the data were processed

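The authors deposited linear intensities, 1 for every probe set on every array. Per the submitters' processing notes, Affymetrix Expression Console was used. How it summarized, background-corrected and normalized the signals was not given in the sources used here. Array medians differed, so the deposited intensities had not been forced to 1 distribution. Arrays were grouped by their titles. Probe sets were named through the platform annotation (25335 of 41155 rows, 1814 of them with several symbols). All 47 collagen symbols matched RefSeq (GRCm38.p6) by Entrez ID. Intensities were transformed as log2(intensity + 1), since the files hold linear values. The size of a difference between dim values depends on the number added, and with 1 it was larger than with 16 for Col1a2 17548532 and Col8a2. The fit was limma 3.58.1 (lmFit, eBayes, R 4.3.3) with genotype as the only term, two-sided, Benjamini-Hochberg over 25335 probe sets. It was tested on simulated arrays. Companion and marker genes used their probe set of highest mean. Companion genes named were the 4 with the smallest unadjusted p per list and those above background on all arrays. Serpinh1 and the marker genes named were chosen after their values were seen. Members, lists and tests were chosen with earlier results of these data known. Promoter windows are RefSeq's. Results were recomputed, each under the alternatives that apply to it, without single arrays, with a block for the replicate number, after quantile normalization or median centring, with a pseudocount of 16, without dim probe sets, over other rows, with another variance prior or none, and with other background percentiles.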

Additional observations from a re-analysis of the deposited data

Results flagged for a closer look

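Of 48 quantities examined in the 4 WT arrays (the level of each collagen probe set and the count above the mark), 1 had a single array far from the rest, where chance gives about 1 in 20. Col20a1, a fibril-associated chain, stood at 9.71 on WT replicate 2 and at 21.9, 20.5 and 21.4 on the other WT arrays, and at 30.5, 15.7 and 32.8 in Ahr-KO. All of these Col20a1 values lie under the background mark, and the gap was 0.917 of the WT range on the log2 scale. Single high WT intensities described above were not flagged on that scale. They include Col10a1 on WT replicate 3, and Col5a1 and Col6a1 on WT replicate 4.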

How the results depend on the processing

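No probe set of the table passed an adjusted p of 0.05 under any alternative run, and both Col1a2 probe sets kept lower values in Ahr-KO under all 15 (17548532 between -6.77 and -3.50, 17455801 between -0.97 and -0.42). Same-numbered arrays did not deviate together (correlations of 0.0227, -0.0646 and 0.0101), so the numbers were not taken as pairs; the replicate block, in which WT replicate 4 has no partner and no weight, gave 0 calls and -5.81 for Col1a2 17548532. The count of collagen probe sets with an unadjusted p under 0.05 was 1 to 2 when single arrays were left out, and 1 after quantile normalization, after median centring and with dim probe sets removed, where 15 collagen probe sets were left. The count whose genotypes do not overlap was 3 to 7 with 1 array fewer, which makes separation easier (9.27 to 14.5% of all tested). It was 1 after quantile normalization and with dim probe sets removed. These settings for this count were chosen after seeing the data. Removing dim probe sets kept those above the mark on at least 3 arrays. Col1a2 17548532 passed that filter through its 4 WT arrays alone, so its place in either count there is no check. The median collagen difference ran from -0.17 to 0.01 over the arrays left out. The mean count above the mark, Ahr-KO minus WT, was -1.75, against 0.75 with the 90th percentile, -0.50 with the 99th, -0.25 with 1 probe set per gene and -2.67 to -0.75 over the arrays left out. Directions were followed one by one for only some of the 47 collagen probe sets, and 5 uncalled ones turned. As arrays were left out, Col7a1 ranged from -0.57 to 0.30, Col16a1 from -0.32 to 0.11 and Col6a1 17242177 from -0.18 to 0.53. Col6a1 17547505 ranged from -1.60 to 0.09 and Col5a1 17383350 from -0.90 to 0.56, these 2 turning without WT replicate 4. Over all 47, the number lower in Ahr-KO was 28 with all arrays and 23 without WT replicate 2, so probe sets not followed turned as well. With the replicate block Col16a1 was 0.05, Col5a1 17383350 0.56 and Col6a1 17547505 0.09, and with median centring Col7a1 was 0.02. The cause was not tested. Signal near background limits most members.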
